A study of Mus musculus with 6 samples.

Results

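The genes described here build and crosslink elastic fibres in the mouse heart. They were chosen by name, as the core protein elastin (Eln), the fibrillins (Fbn1, Fbn2), the fibulins (Fbln5, Efemp2), the microfibril and interface proteins (Mfap4, Mfap5, Emilin1) and the crosslinking enzymes (Lox, Loxl1). All 10 were found among the 26012 genes measured, and all 10 passed the filter on low values. The 6 hearts whose ventricular RNA was sequenced came from male C57BL/6 mice aged 8 weeks, in which the left anterior descending coronary artery was ligated to produce a myocardial infarction (MI). Just after ligation, 3 hearts received control mimic and 3 received miR-19a and miR-19b mimics together (synthetic RNAs that act as these miRNAs in the cell), 10 μg per heart in either case and carried by a lipid reagent. Hearts were collected 4 days after MI, so all 6 were infarcted and injected, and no uninjured heart enters the comparison. The mimics were injected around the infarct, whereas the RNA came from ventricular tissue in which infarct and remote muscle are not told apart by the labels.

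Elastic fibres have a core of crosslinked elastin on a scaffold of fibrillin microfibrils. Fibulins bring tropoelastin, the soluble precursor, and the lysyl oxidases together, and these copper enzymes oxidise lysine side chains so that elastin and collagen chains become covalently joined. In the normal ventricle these genes are active mainly in fibroblasts, vascular smooth muscle and endocardium, and after infarction they are part of the matrix programme of activated fibroblasts. In bulk tissue, fewer cells of a type and less RNA per cell cannot be told apart.

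The sequences below show the agent and the members' possible contact with it. The mature mouse miRNAs (RefSeq, GRCm38.p6) are given with the seed, bases 2 to 8, in capitals. In the genome miR-19a lies at chr14:115044048-115044070 and miR-19b at chr14:115044358-115044380 on the plus strand, with a further copy of miR-19b at chrX:52741991-52742013 on the minus strand. The pair differs by the single substitution U11C, counted from the 5′ end of miR-19a, and shares its seed.
mmu-miR-19a-3p: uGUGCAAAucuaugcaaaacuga
mmu-miR-19b-3p: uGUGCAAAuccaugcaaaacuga

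The complement of the seed was searched in the longest annotated 3′ UTR of each gene (GENCODE M21, GRCm38, sense strand), as TTTGCAC and TTGCACA, and a place where these overlap was counted once. A match was found in 1 of the 10 members, Mfap4, against 19.3% of the 15866 tested genes with a 3′ UTR. Mfap4 held 2 matches in a 3′ UTR of 899 bases, at chr11:61488294-61488300 and chr11:61488392-61488398 on the plus strand. They are shown with their flanks, the matched bases in capitals.
Mfap4 first match: agctgccagctTTTGCACcccacctcagc
Mfap4 second match: ccaatcagctcTTGCACActgccacaccc

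None of these letters stood in the longest annotated 3′ UTR of the other 9 members, which ranged from 325 bases in Emilin1 to 4177 bases in Fbln5. A match is a description of sequence, and its absence says only that these letters were not in this window.

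The libraries held between 19398196 and 23645308 reads on genes, and the members took between 0.297% and 0.429% of them. The deposited values are normalized counts, that is reads per gene after division by a size factor for each heart. The library of miR-19a/19b mimic replicate 3 stood apart. Over all genes its reads differed from those of its group mates with a chi-square per degree of freedom of 110 to 123, against 10.3 between these mates and 9.49 to 24.4 among control hearts. In that heart the summed normalized counts of 10 cardiomyocyte markers came to 303953, against 495929 to 898792 in the other 5 hearts. Its 8 smooth muscle markers summed to 53307, against 84132 to 110705, and its 10 fibroblast markers to 862284, against 522759 to 732342. These sums rest on few genes. Des gave 45214 of the smooth muscle sum, and Col1a1, Col1a2 and Col3a1 gave 412278, 204359 and 208050 of the fibroblast sum. Col1a1 and Col1a2 were highest in that heart, whereas Col3a1 was highest in control mimic replicate 2, at 220448. Of the other fibroblast markers, Pdgfra, Lum and Pdgfrb were highest in miR-19a/19b mimic replicate 3, whereas Dcn was at its lowest, 10537. All markers of these 3 lists were present in every heart, at 10 normalized counts or more. Fold changes, ratios and list medians are therefore given below both with this heart and with it left out.

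In order of level, the crosslinking enzyme Loxl1 led the group and Fbn2 closed it. Levels of different genes were compared as normalized counts per kilobase of exon. Loxl1, which maintains elastic fibres in adult tissue, had 4113 ± 457 (SD, n = 6 hearts). Mfap4, a fibrinogen-related protein that binds tropoelastin and fibrillin, had 3558 ± 385, and Lox, the enzyme that joins both collagen and elastin, had 2712 ± 485. These 3 kept their order in each of the 6 hearts, although their ranges over hearts overlapped.

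Emilin1, found where elastin meets the microfibril, Mfap5, a microfibril-associated glycoprotein, and Fbn1, the main fibrillin of adult tissue, followed at 2023 ± 271, 1869 ± 230 and 1628 ± 249 per kilobase. Emilin1 exceeded Mfap5 in 3 of 6 hearts and Mfap5 exceeded Fbn1 in 5 of 6, so the order of neighbours was not settled beyond their spread. Below them the ranges no longer touched. Eln was at 950 ± 185 per kilobase, Efemp2 at 605 ± 76.8, Fbln5 at 226 ± 49.9 and Fbn2, the fibrillin used mostly before birth, at 47.5 ± 9.95. Fbn2 was counted on 485 to 988 reads per heart, and every other member on at least 1053. Per length of the longest transcript in place of all exons, the level was 1997 for Eln, above Fbn1, and 2693 for Mfap5, above Emilin1 at 2593. For Eln this follows from the lengths, since its annotated exons sum to 8098 bases and its longest transcript to 3853.

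**Figure D1:**
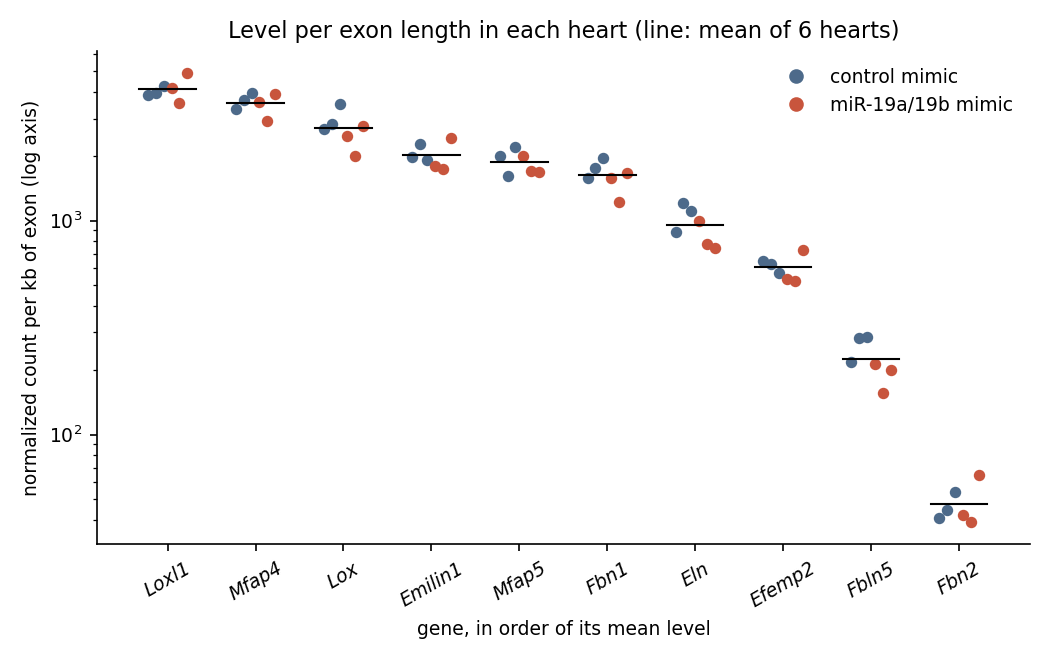
Normalized count per kilobase of exon (log axis) for each gene in each of the 6 hearts, with control mimic hearts in blue, miR-19a/19b mimic hearts in red and the mean of all hearts as a line. The means run from 4113 for Loxl1 to 47.5 for Fbn2, and neighbouring genes overlap down to Fbn1.

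The main question was whether these genes differed between hearts with miR-19a/19b mimic and with control mimic. Fbln5 and Eln had the largest differences, with mean normalized counts 27.5% and 21.3% lower in miR-19a/19b mimic hearts, followed by Lox (19.4% lower) and Fbn1 (15.8% lower). For the other 6 members the means differed by at most 7.06% in either direction. At an adjusted p-value under 0.05 from limma on log2(normalized count + 1), 0 of the 10 members passed, as did 0.0% of the 21126 genes tested. At an unadjusted p-value under 0.05, 1 member was lower, against 2.63% of all genes, and 0 were higher, against 1.39%. The groups did not overlap for 1 member, which was lower, against 5.3% of all genes that were lower and 3.9% that were higher without overlap. On the reads recovered from the values, edgeR's quasi-likelihood test called 0 members and 0.0% of genes, and DESeq2 called 0 members and 0.205% of the genes to which it gave an adjusted p-value.

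The log2 fold change was below 0 for 8 of the 10 members, with a median of -0.08, against 49.2% of all genes and a median of 0.00. Without miR-19a/19b mimic replicate 3 it was below 0 for all 10 members (49.6% of genes), with a median of -0.21, and 4 members were lower at an unadjusted p-value under 0.05 (6.08% of genes), namely Fbln5, Lox, Fbn1 and Efemp2. In that fit 2.58% of all genes passed the adjusted threshold and 0 of the members did. Without miR-19a/19b mimic replicate 2, in which 8 of the 10 members had their lowest value, the fold change was below 0 for 5 members (50.3% of genes), and 0 members were lower at the unadjusted threshold (1.96% of genes). Leaving out replicate 1 of the control mimic group or of the miR-19a/19b mimic group gave 2 members lower at that threshold, Fbln5 and Eln in both cases, against 2.1% and 2.44% of genes. Leaving out control mimic replicate 2 or 3 gave 0 members, against 1.75% and 2.1% of genes. The number of members below 0 thus moved with the hearts included.

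**Figure D2:**
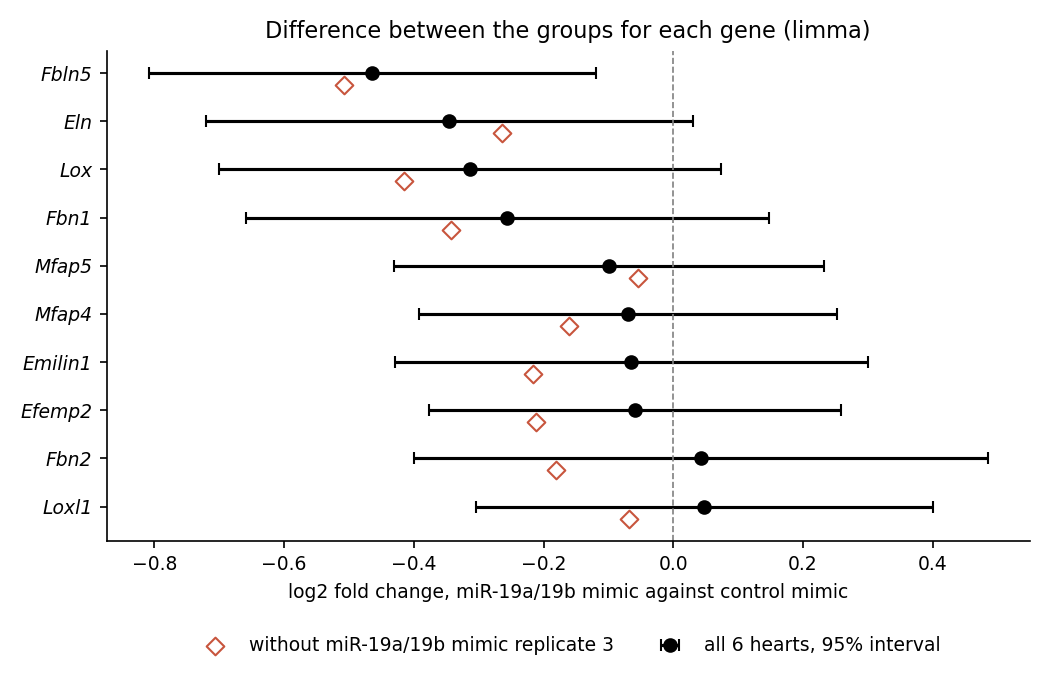
Log2 fold change of each gene in miR-19a/19b mimic against control mimic hearts (filled circles, with the 95% interval from limma over 6 hearts) and the same on leaving out miR-19a/19b mimic replicate 3 (open diamonds). The interval of Fbln5, from -0.81 to -0.12, is the only one that does not include 0, and all 10 diamonds lie below 0.

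Among the fibulins, Fbln5 (ENSMUSG00000021186, chr12:101746565-101819055, minus strand) stood lowest relative to control. Its protein binds tropoelastin, integrins and Loxl1, and guides elastin onto microfibrils. Normalized counts were 1509, 1953 and 1979 in control mimic replicates 1, 2 and 3, against 1474, 1086 and 1387 in the hearts with miR-19a/19b mimic, in the same order. The groups did not overlap, but control mimic replicate 1 and miR-19a/19b mimic replicate 1 were separated by only a small gap. The means were 1813 ± 264 (SD, n = 3) and 1315 ± 204, a log2 fold change of -0.46 (standard error 0.15, unadjusted p = 0.0139, adjusted p = 0.9996 from limma). The fold change stayed between -0.59 and -0.33 when each heart was left out in turn, and its unadjusted p-value was under 0.05 in 3 of these 6 fits. Without miR-19a/19b mimic replicate 3 it was -0.51 (unadjusted p = 0.00516, adjusted p = 0.106 from limma).

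Efemp2 (ENSMUSG00000024909, chr19:5473973-5481853, plus strand) encodes the fibulin that delivers Lox to tropoelastin. It had 2445, 2372 and 2159 normalized counts in control mimic hearts and 2026, 1987 and 2751 in miR-19a/19b mimic hearts. Replicates 1 and 2 of the miR-19a/19b mimic group were below every control heart and replicate 3 was above every one. The log2 fold change was -0.06 (95% interval -0.38 to 0.26), and -0.21 without replicate 3 (unadjusted p = 0.0423, adjusted p = 0.320 from limma). The fibulins thus differed in the heart that stood apart, where Fbln5 was below all control hearts and Efemp2 above them. Efemp2 shares 173 exonic bases with Mus81 on the other strand, and strand-specific counting is not given in the sources used here, so its reads are less certain.

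For Eln (ENSMUSG00000029675, chr5:134702593-134747323, minus strand), normalized counts were 7135, 9763 and 8935 in control mimic hearts and 8066, 6261 and 6010 in miR-19a/19b mimic hearts. The groups overlapped through control mimic replicate 1, which was below miR-19a/19b mimic replicate 1. Means were 8611 ± 1343 and 6779 ± 1122 (SD, n = 3), a log2 fold change of -0.35 (standard error 0.17, 95% interval -0.72 to 0.03, unadjusted p = 0.0674, adjusted p = 0.9996 from limma). Leaving out control mimic replicate 1 or miR-19a/19b mimic replicate 1 gave unadjusted p-values of 0.0303 and 0.0189 in limma. The fold change was -0.26 on leaving out the third heart with miR-19a/19b mimic, which had the lowest Eln. The low Eln of that heart stood beside a low sum of its smooth muscle markers (53307 normalized counts), of which Des alone gave 45214. Des and Synpo2 had their lowest counts in that heart, and the other markers of the list did not. Myh11 and Cnn1, at 861 and 527, were above miR-19a/19b mimic replicate 2, at 738 and 428. In miR-19a/19b mimic replicate 3 both were nevertheless below every control heart, where the lowest counts were 916 and 635. Smtn, Lmod1, Mylk and Actg2 lay within the control range in miR-19a/19b mimic replicate 3. The part of smooth muscle cells in the Eln value was not tested.

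The fibrillins form the microfibril scaffold. Fbn1 (ENSMUSG00000027204, chr2:125300594-125507993, minus strand) had 19115, 21326 and 23897 normalized counts in control mimic hearts and 19235, 14746 and 20173 in miR-19a/19b mimic hearts. Only miR-19a/19b mimic replicate 2 was below the control range. Fbn1 had a log2 fold change of -0.26 (standard error 0.18, unadjusted p = 0.185, adjusted p = 0.9996 from limma), -0.34 without miR-19a/19b mimic replicate 3 and -0.12 without replicate 2. A stretch of 2442 bases of Fbn1 exon is also annotated as Gm9913 on the other strand, which had a mean of 14.8 normalized counts.

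Fbn2 (ENSMUSG00000024598, chr18:58008623-58209926, minus strand) had 536, 587 and 715 normalized counts in control mimic hearts and 557, 515 and 854 in miR-19a/19b mimic hearts. Its highest value of all was in miR-19a/19b mimic replicate 3 and its lowest in replicate 2. Its log2 fold change was 0.04 (95% interval -0.40 to 0.49) with that heart and -0.18 without it. Fbn2 thus gave no direction that held over the hearts.

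The lysyl oxidases oxidise the lysines from which crosslinks form. Lox (ENSMUSG00000024529, chr18:52516069-52529867, minus strand) had 12809, 13516 and 16719 normalized counts in control mimic hearts and 11863, 9625 and 13209 in miR-19a/19b mimic hearts. Replicates 1 and 2 of the miR-19a/19b mimic group were below all control hearts and replicate 3 lay within their range. Lox had a log2 fold change of -0.31 (standard error 0.17, 95% interval -0.70 to 0.07, unadjusted p = 0.0994, adjusted p = 0.9996 from limma), or -0.42 when miR-19a/19b mimic replicate 3 was left out (unadjusted p = 0.0137, adjusted p = 0.179 from limma).

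Loxl1 (ENSMUSG00000032334, chr9:58287723-58313212, minus strand) had 12796, 13043 and 14003 normalized counts in control mimic hearts and 13790, 11627 and 16110 in miR-19a/19b mimic hearts. The control hearts were close together and lay inside the wider miR-19a/19b mimic range. Loxl1 had a log2 fold change of 0.05 (95% interval -0.30 to 0.40), or -0.07 when miR-19a/19b mimic replicate 3 was left out.

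The remaining microfibril and interface proteins had small differences. Mfap4 (ENSMUSG00000042436, chr11:61485431-61488900, plus strand), the member with the miR-19 seed matches shown above, had 6361, 7015 and 7587 normalized counts in control mimic hearts and 6885, 5644 and 7541 in miR-19a/19b mimic hearts. The log2 fold change was -0.07 (95% interval -0.39 to 0.25), -0.16 without miR-19a/19b mimic replicate 3 and 0.05 without replicate 2. Mfap4 shares 89 exonic bases with Mapk7 on the other strand.

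Mfap5 (ENSMUSG00000030116, chr6:122505845-122529290, plus strand) had 7155, 5823 and 7885 normalized counts in control mimic hearts and 7220, 6121 and 6050 in miR-19a/19b mimic hearts. It was the only member whose lowest value was in a control heart, and its log2 fold change was -0.10 (95% interval -0.43 to 0.23), or -0.05 with miR-19a/19b mimic replicate 3 left out. Emilin1 (ENSMUSG00000029163, chr5:30913402-30921277, plus strand) had 9831, 11210.4 and 9461 normalized counts in control mimic hearts and 8842, 8612 and 11971 in miR-19a/19b mimic hearts. As for Efemp2, replicates 1 and 2 were below every control heart and replicate 3 above every one, and the log2 fold change was -0.06 (95% interval -0.43 to 0.30), or -0.22 without replicate 3.

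**Figure D3:**
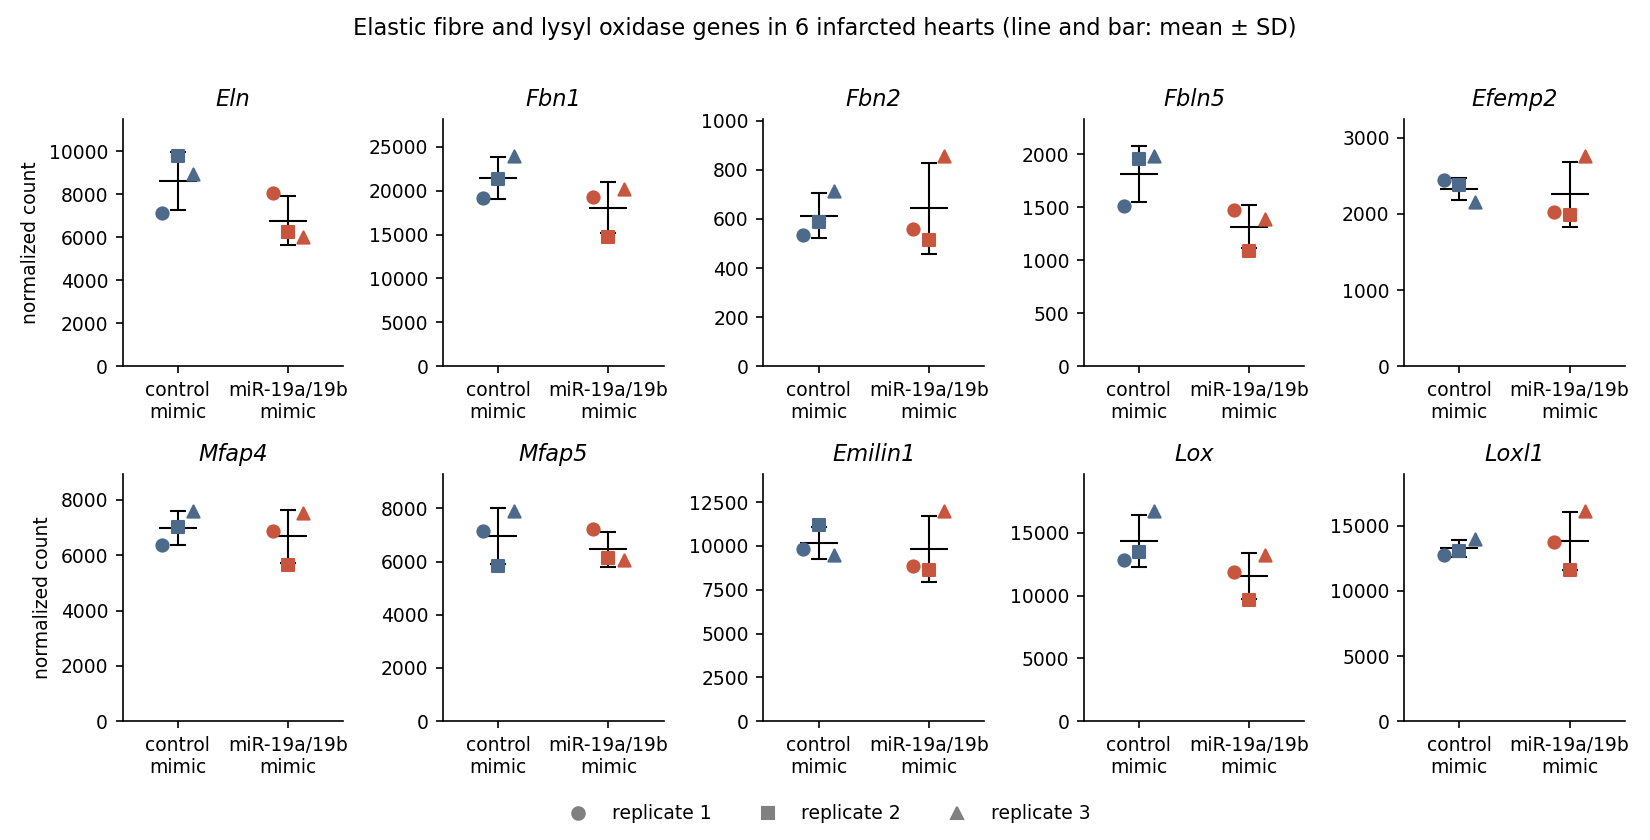
Normalized count of each gene (linear axis from 0) in 3 control mimic hearts (blue) and 3 miR-19a/19b mimic hearts (red), with the replicate number as the symbol and the mean ± SD as line and bar. The groups overlap in every panel but that of Fbln5, and miR-19a/19b mimic replicate 2 (red square) is the lowest heart for 8 of the 10 genes.

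Heart by heart, the members varied together in part. Control mimic replicate 3 had the highest value of 5 members and miR-19a/19b mimic replicate 3 that of 4 (Fbn2, Efemp2, Emilin1 and Loxl1). In miR-19a/19b mimic replicate 2 all 10 members were below the control mean, by a median of 0.27 on the log2 scale. In miR-19a/19b mimic replicate 1 it was 8 of the 10, by a median of 0.14, and control mimic replicate 1 was also below that mean for 8 members, by a median of 0.14. In miR-19a/19b mimic replicate 3 the members divided, 5 above the control mean and 5 below it, from 0.49 for Fbn2 to -0.51 for Eln.

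**Figure D4:**
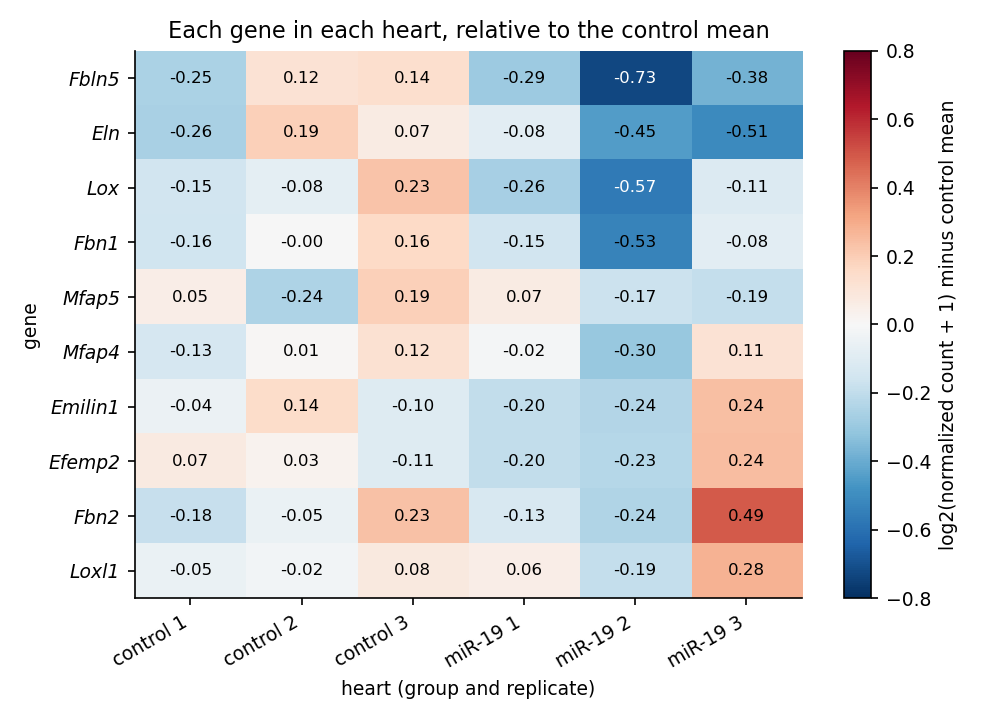
Log2(normalized count + 1) of each gene in each heart minus the mean of the control hearts, from blue (lower) to red (higher). The column of miR-19a/19b mimic replicate 2 is below 0 throughout, from -0.73 for Fbln5 to -0.17 for Mfap5, whereas that of replicate 3 runs from -0.51 for Eln to 0.49 for Fbn2.

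Likeness of profile was measured as the root mean square difference between log2 profiles over the 6 hearts, each centred on its mean, among 11609 genes with a mean of at least 100. All profiles share the same 6 libraries. For Lox the most similar gene of all was another member, Fbn1, at a distance of 0.06, against a spread of 0.24 in Lox itself. Ephb6, Amica1, Adamts6 and Pag1 came next, at 0.07 to 0.08. For Eln the most similar genes were Bhlhe41 at 0.05, then Col4a5, Klhl28, Lmbr1 and Nbea at 0.08 to 0.09. The nearest member to Eln was Fbln5 at 0.15, in place 76 of the order, and Fbn2 was the farthest at 0.39.

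Ratios within a heart do not depend on how libraries were scaled, and 4 were compared with an exact two-sided permutation test, which cannot give a p-value below 0.1 for 3 hearts against 3. Loxl1 to Lox was 0.999, 0.965 and 0.838 in control mimic hearts and 1.16, 1.21 and 1.22 in miR-19a/19b mimic hearts. The ratio did not overlap between the groups and was higher by 0.36 on the log2 scale (exact permutation p = 0.1, the smallest possible, adjusted p = 0.4 over 4 ratios). Of the 7340 other genes with a mean of at least 500, 16.9% also had a ratio to Lox that was higher in every miR-19a/19b mimic heart, so this was not particular to Loxl1. The difference was 0.35 with miR-19a/19b mimic replicate 3 left out.

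The ratio of Fbn2 to Fbn1 was 0.0280, 0.0275 and 0.0299 in control mimic hearts and 0.0290, 0.0350 and 0.0423 in miR-19a/19b mimic hearts. The groups overlapped, with a difference of 0.30 on the log2 scale (exact permutation p = 0.2, adjusted p = 0.4). It was 0.16 with miR-19a/19b mimic replicate 3 left out and 0.43 with replicate 1 left out. Eln to Fbn1, elastin per scaffold, was 0.402 ± 0.0486 and 0.381 ± 0.0717 (SD, n = 3, exact permutation p = 0.8, adjusted p = 0.8), and its log2 difference of -0.09 turned to 0.078 with miR-19a/19b mimic replicate 3 left out. Eln to Col1a1, elastin against the main fibrillar collagen, was 0.0307 ± 0.00668 and 0.0236 ± 0.00784 (SD, n = 3, exact permutation p = 0.6, adjusted p = 0.8), with the lowest ratio of 0.0146 in miR-19a/19b mimic replicate 3, where Col1a1 had its highest count, 412278. The log2 difference in this ratio was -0.42 over all hearts and -0.10 with that heart left out. It was -0.25 with control mimic replicate 2 left out, and between -0.58 and -0.49 with any other heart left out.

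**Figure D5:**
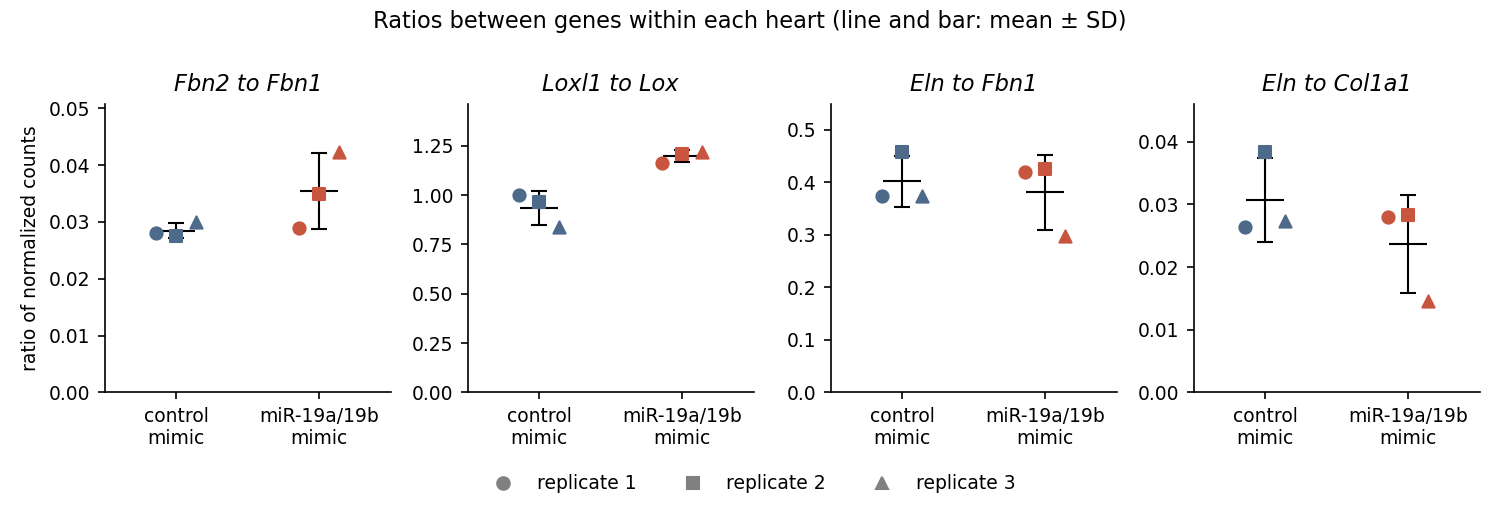
Ratios of normalized counts within each heart (linear axes from 0), with control mimic hearts in blue, miR-19a/19b mimic hearts in red, the replicate number as the symbol and the mean ± SD as line and bar. Only Loxl1 to Lox separates the groups, at 0.838 to 0.999 against 1.16 to 1.22.

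Other genes of the pathway were taken from 4 lists, to be read against the 2.63% of all genes that were lower and the 1.39% that were higher at an unadjusted p-value under 0.05, and the 49.2% with a log2 fold change below 0. With miR-19a/19b mimic replicate 3 left out, 6.08% of all genes were lower at that threshold, 14.5% passed it in either direction and 49.6% were below 0. Of 20 further microfibril and elastic fibre proteins, 2 were lower and 0 higher at an unadjusted p-value under 0.05, and the median log2 fold change was -0.01, with 11 below 0. Leaving out that heart gave 2 lower and 1 higher, 13 below 0 and a median of -0.06. The lower ones were Ltbp2, a latent TGF-β binding protein homologue that attaches to fibrillin, and Thsd4, which promotes fibrillin assembly. Ltbp2 had 14253 ± 1928 and 9815 ± 1732 (SD, n = 3) normalized counts, without overlap, a log2 fold change of -0.55 (unadjusted p = 0.0118, adjusted p = 0.9996 from limma). With the third miR-19a/19b mimic heart left out it was -0.57. Thsd4 had 316 ± 65.1 and 208 ± 32.9, a log2 fold change of -0.59 (unadjusted p = 0.0112, adjusted p = 0.9996 from limma), or -0.56 with that heart left out. The most abundant of this list besides Ltbp2, Fbln2 and Ltbp3, had log2 fold changes of -0.05 and -0.01, or -0.19 and -0.06 with that heart left out.

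Of 13 genes for the other lysyl oxidases, their processing and matrix crosslinking, 1 was lower and 0 higher at the unadjusted threshold, with a median of -0.18 and 11 below 0. Without the third heart of the miR-19a/19b mimic group, 2 were lower and 0 higher, all 13 were below 0 and the median was -0.21. The gene lower over all hearts was Loxl4, a further lysyl oxidase, with 256 ± 27.2 and 196 ± 26.4 normalized counts and no overlap, a log2 fold change of -0.39 (unadjusted p = 0.0273, adjusted p = 0.9996 from limma), or -0.49 with that heart left out. The most abundant genes of the list, the matrix proteins Fn1 and Postn and the transglutaminase Tgm2, had log2 fold changes of -0.18, -0.28 and -0.20. With that heart left out these were -0.33, -0.26 and -0.04.

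Among 14 tested elastases and inhibitors of matrix proteases, 1 was lower and 0 higher at the unadjusted threshold, with a median of 0.01 and 7 below 0. With miR-19a/19b mimic replicate 3 left out, 3 were lower and 1 higher, 11 were below 0 and the median was -0.12. The gene lower over all hearts was Ctss, an elastin-degrading cathepsin abundant in macrophages, with 16329 ± 2114 and 12190 ± 2809 normalized counts, a log2 fold change of -0.44 (unadjusted p = 0.0470, adjusted p = 0.9996 from limma). Ctsl and Mmp14 had log2 fold changes of -0.20 and 0.14, and with that heart left out -0.34 and -0.10, so that Mmp14 changed sign. Of 10 receptors for elastin and microfibrils, 0 passed in either direction and the median was -0.13, with 6 below 0. Itgb1 had a log2 fold change of -0.19, Itgb5 of -0.15 and Lgals3 of 0.05. With that heart left out, 2 receptors were lower and 0 higher, 9 were below 0 and the median was -0.16. The values were then -0.16 for Itgb1, -0.22 for Itgb5 and -0.16 for Lgals3, which changed sign.

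Over all hearts, no gene of the 4 lists passed the adjusted threshold. With miR-19a/19b mimic replicate 3 left out, where 2.58% of all genes passed, 3 genes of these lists did. Ctss was lower (log2 fold change -0.62, adjusted p = 0.0356 from limma), whereas Timp4, an inhibitor of matrix metalloproteinases (0.98, adjusted p = 0.043), and Tnxb, a tenascin of the connective tissue matrix (0.83, adjusted p = 0.0098), were higher. In the heart left out, Timp4 and Tnxb were below every control heart, at 220.4 and 1040 normalized counts, and both genes were named after their values were seen.

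Cell types, among them those that make elastic fibres, were read from marker lists, whose summed normalized counts overlapped between the groups in every case. The 8 myofibroblast markers ranged from 95280 to 127336 in control mimic hearts and from 76692 to 101082 in miR-19a/19b mimic hearts, with 7 of 8 below 0 and a median log2 fold change of -0.28. The 8 smooth muscle markers ranged from 88582 to 110705 and from 53307 to 109652, again with 7 of 8 below 0 and a median of -0.29. With miR-19a/19b mimic replicate 3 left out, 7 of 8 myofibroblast and 6 of 8 smooth muscle markers were below 0, with medians of -0.31 and -0.17. The 10 fibroblast markers had a median of -0.02, or -0.14 with that heart left out, and miR-19a/19b mimic replicate 2, lowest for most members, also had the lowest sum of fibroblast and of myofibroblast markers. Its fibroblast sum was mostly Col1a1, Col1a2 and Col3a1, at 221273, 117125 and 141935. Single fibroblast markers divided in that replicate. Pdgfra and Pdgfrb had their lowest counts there (2278 and 3689), as had these collagens, whereas Dcn and Gsn had their highest (12874 and 14177). The medians were 0.00 for endothelial (8 markers), 0.37 for mesothelial (7), 0.11 for cardiomyocyte (10), -0.11 for macrophage (8), -0.38 for neutrophil (7) and 0.26 for atrial markers (4). With miR-19a/19b mimic replicate 3 left out, these medians were -0.01 for endothelial, 0.58 for mesothelial, 0.60 for cardiomyocyte (all 10 above 0), -0.26 for macrophage, -0.71 for neutrophil and 0.30 for atrial markers. The atrial markers divided, with 2 below 0 and 2 above. Nppa was lower without overlap (log2 fold change -0.94, unadjusted p = 0.00605, adjusted p = 0.954 from limma), and Myl7 was at -0.14. Sln and Myl4 were above 0. Both were highest in miR-19a/19b mimic replicate 1, at 96.8 and 305.6 normalized counts, against at most 0.86 and 86.9 in any other heart. Skeletal muscle markers (10) had a median of 2.14, or 3.23 with miR-19a/19b mimic replicate 3 left out. They gave a sum of 3124 in the first miR-19a/19b mimic heart, where the remaining hearts had 34.2 to 73.5. None of these markers was at 0 in all hearts, and their part in the members' values was not tested.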

How the data were processed

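Polyadenylated RNA of 6 hearts was sequenced. The authors aligned reads with STAR (2.5.1b) and counted them with HTSeq (0.6.0). The signal they deposited is a normalized count, each count divided by a size factor of 0.905 to 1.16, and all values were whole multiples of 1 read (tolerance 0.02). Submitters' notes name mm9 and DESeq2 (1.10.1), and the methods name edgeR. Coordinates are as listed, on GRCm38, since 82.7% of 25884 genes, and 6 members, had identical positions in GENCODE M21. The deposited fold changes and p-values of the authors, and their table of 544 selected genes, were not used. Levels per kilobase use exon lengths from GENCODE M21, not the gene lengths the authors list.

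Genes with a mean of at least 1 were tested across all genes with limma (3.58.1, R 4.3.3, trended prior) on log2(normalized count + 1), with Benjamini-Hochberg adjustment. A fold change on this scale understates that of genes with few reads. The scripts were tested on simulated data. Alternatives were edgeR (4.0.16) and DESeq2 (1.42.0) on recovered reads, a pseudocount of 0.1, other filters, a replicate block and each heart left out. The methods call the 3 hearts of a group biological replicates.

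The members and lists were chosen with earlier results of these data known. Every member was named, and of other lists each gene with an unadjusted p-value under 0.05 and the 3 of highest mean. The 5 genes nearest in profile to Eln and to Lox were named as well. Single cell type markers other than Col1a1 were named after their values were seen. The atrial list was added after the files were seen.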

Additional observations from a re-analysis of the deposited data

How the results depend on the processing

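Of 120 refits of the members' fold changes under 12 alternatives, 111 kept their direction and 0 passed an adjusted p-value of 0.05. Directions turned only on leaving out a heart: the log2 fold change then lay between -0.18 and 0.18 for Fbn2, -0.21 and 0.024 for Efemp2, -0.16 and 0.048 for Mfap4, -0.22 and 0.021 for Emilin1 and -0.068 and 0.17 for Loxl1. For the ratio of Eln to Fbn1, a log2 difference of -0.09 lay between -0.18 and 0.078. By leaving out hearts, 0 to 164 genes were lower and 0 to 383 higher past the adjusted threshold, the most when miR-19a/19b mimic replicate 3 was left out, and DESeq2 gave 28 and 1. Members lower at an unadjusted p-value under 0.05 numbered 0 (without control mimic replicate 2 or 3, or miR-19a/19b mimic replicate 2, where 1.75%, 2.1% and 1.96% of all genes were lower) to 4 (without miR-19a/19b mimic replicate 3, 6.08%), and 2 without replicate 1 of the control mimic (2.1%) or miR-19a/19b mimic group (2.44%). Per kilobase of the longest transcript, the level was 1997 for Eln, 869 for Efemp2, 2693 for Mfap5 and 2593 for Emilin1, since these transcripts are shorter than all exons together. For the other changes the cause was not tested.

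Same-numbered hearts did not deviate together (r of -0.02, -0.17 and -0.29 over genes, and 0 of 6 hearts correlated best with their own number). With the replicate number as a block, 0 members passed the adjusted threshold and 1 was lower at the unadjusted one (2.05% of all genes), and 641 genes had an unadjusted p-value under 0.05, against 848 without the block. No member's call changed. Depth was lowest for Fbn2, at 485 to 988 reads per heart.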
